A study of Mus musculus with 6 samples.

Results

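Cytoplasmic ribosomal protein genes encode the proteins that, with ribosomal RNA, build the 40S (small) and 60S (large) subunits of the ribosome outside mitochondria. All probes of a mouse Illumina array whose platform gene symbol is Rpl or Rps with a number, Rplp0 to Rplp2 or Rpsa were taken, without kinases, mitochondrial ribosomal proteins and pseudogenes. This gave 88 of 45281 probes, for 59 of 19057 named genes: 32 of the large subunit, 3 of its stalk and 24 of the small subunit. A probe was analysed when its detection p-value, the authors' measure of signal against array background, was under 0.05 on each of the 2 arrays of any group. In total 75 probes passed, for 54 genes (30 large subunit, 3 stalk, 21 small subunit).

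The arrays held RNA of blastocysts of CD-1 mice, an outbred strain, and each array carried 1 pool of 100 to 120 embryos. All females received 5 IU of pregnant mare gonadotropin, then 5 IU of human chorionic gonadotropin 44 h later, and were mated. The 3 groups of 2 arrays were uterine embryos of mice that received 0.5 µg of a compound labelled ICI, embryos kept in a ligated oviduct, and uterine embryos of normal pregnant mice. They are called ICI, oviduct and uterus embryos here. The labels describe the embryos as day 3.5 and also as day 4 post coitum, with the day of the plug counted as day 1. They do not name the mothers of each pool. They place 70 h after human chorionic gonadotropin in the sentence on uterine embryos, where it may time the collection or the ICI dose, and give no hour for oviduct embryos, whose oviducts were ligated on day 4. With the origin of the pools unstated, p-values measure a spread that may be technical. In pools of whole embryos, fewer cells of a type and less RNA per cell cannot be told apart.

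Ribosomal protein mRNAs are among the most abundant of growing cells. Many begin with a short run of pyrimidines at the 5′ end, the TOP (terminal oligopyrimidine) motif, through which the mTOR pathway and the RNA-binding protein Larp1 control their translation as a group. In the preimplantation mouse embryo, ribosome production restarts after genome activation and rises towards the blastocyst, when protein synthesis is high. Several of these genes, Rplp0 and Rpl13a among them, are used as reference genes in PCR.

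Detected probes per array numbered between 16525 and 18182, and the mean signal was between 344 and 488. The members' 88 probes held 4.84% and 4.99% of the summed signal on the ICI arrays, 4.29% and 4.79% on the oviduct arrays, and 4.76% and 4.75% on the uterus arrays. Lineage markers passed the same filter, above background on both arrays of a group but not necessarily of every group. These were 8 of 8 trophectoderm genes, 6 of 6 inner cell mass and epiblast genes, and 5 of 6 primitive endoderm genes, without Gata4. Summed trophectoderm signal was 37205 and 34548 in ICI, 44539 and 28009 in oviduct, and 41094 and 36033 in uterus embryos. For inner cell mass and epiblast genes it was 8604 and 7658, 9593 and 10336, and 7015 and 6879 in the same order. For primitive endoderm genes it was 4674 and 5612, 9019 and 5383, and 5673 and 5200. Markers of other cells were also uneven between arrays. The summed signal of 5 detected blood and immune genes (of 10 listed) was 911 and 1097 on the ICI arrays, 1048 and 2881 on the oviduct arrays, and 1850 and 1239 on the uterus arrays. That of 2 oviduct epithelium genes of 10 was 215 and 235 in ICI, 350 and 594 in oviduct, and 217 and 220 in uterus embryos. The 5 stroma and muscle genes of 10 summed to 470 and 470, 559 and 995, and 459 and 445 in the same order of groups. The second oviduct array carried the highest summed signal of these 3 lists, while Foxj1, Pax8, Col1a1 and Ptprc were above background in no group. The 4 detected cumulus and oocyte genes of 8 summed to 475 and 453 in ICI, 671 and 869 in oviduct, and 521 and 4017 in uterus embryos, high on the second uterus array. The 5 detected uterine epithelium genes of 8 summed to 4810 and 4893, 4506 and 3520, and 5915 and 5229 in the same order. The part of these markers in the results below was not tested.

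The sequences around the transcription start, where a TOP motif lies, are shown for 5 genes whose differences are described below, taken from RefSeq promoters of GRCm38.p6. Each run of 30 bases goes from 10 bases before to 20 bases after the annotated start, on the gene's strand. The letters CTTTC are in capitals, except a further match in Rpl7a that overlaps the marked one and stays in lower case. For Rps24 and Rpl22 the first of 2 listed starts is given.
Rplp2, chr7:141447641-141447670, plus strand: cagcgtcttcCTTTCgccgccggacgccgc
Rpl7a, chr2:26910797-26910826, plus strand: ctcttCTTTCtttctccagcagccgagcaa
Rps6, chr4:86857348-86857377, minus strand: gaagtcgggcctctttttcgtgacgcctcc
Rps24, chr14:24490668-24490697, plus strand: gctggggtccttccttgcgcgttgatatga
Rpl22, chr4:152325716-152325745, plus strand: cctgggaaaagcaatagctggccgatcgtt
Promoters were listed for 48 of the 59 member genes. CTTTC on the gene's strand in that window was found for 11 of 48 (22.9%), against 4.43% of all 27025 genes with a promoter. CCGGAAG, the core bound by ETS-family factors, was found on either strand between 250 bases before and 50 after the start for 22 of 48 (45.8%), against 9.93% of all genes. TATAAA on the gene's strand was found in the same window for 4 of 48 (8.33%), against 9.77%. None of these motifs contains another, and a gene counted if any of its listed starts held the match. A match is only a description of these letters, and annotated starts may lie off the start used in embryos. The count of CTTTC is not a count of TOP motifs. Rps6 and Rps24, shown without CTTTC, also have runs of pyrimidines near the start.

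No ribosomal protein gene passed the test in any comparison of the groups. Differences were given by a linear model over all 6 arrays (limma) on log2 signals after background correction and quantile normalisation, each gene at its brightest analysed probe, with p-values adjusted over all 17677 analysed probes and a threshold of 0.05. Among all 9857 genes 0%, 0.0812% and 0.314% passed between ICI and uterus, oviduct and uterus, and ICI and oviduct embryos, and among all analysed probes 0%, 0.0509% and 0.339%. Among the member genes the count was 0 of 54 each time. The moderated F-test over the 3 groups also called 0 of the 54 members, with a lowest limma adjusted p of 0.256, while 2 had an unadjusted p under 0.05. Of all genes, 0.0406% passed that test and 18% had an unadjusted p under 0.05. The 95% interval of the difference lay within 1 log2 unit (2-fold) of zero for 50 of the 54 genes between ICI and uterus, for 48 between oviduct and uterus, and for 46 between ICI and oviduct embryos. Among all genes this held for 80.2%, 68.8% and 68.2%. The median half-width of the interval was 0.43.

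**Figure D1:**
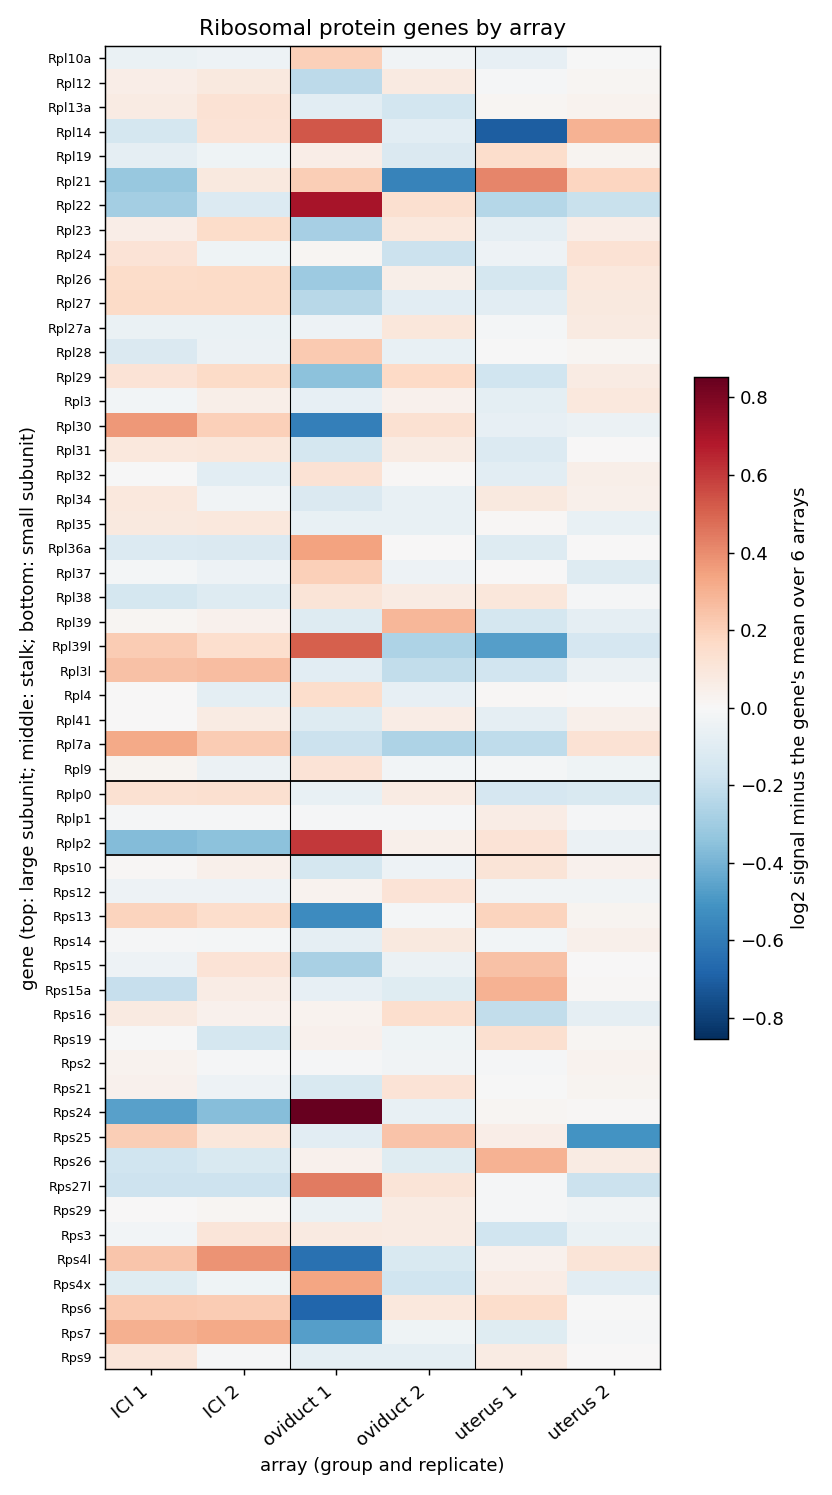
Log2 signal of the 54 ribosomal protein genes (rows) on each of the 6 arrays (columns), as the difference from the gene's own mean over the arrays. Most rows are pale, and the first oviduct array holds the highest or lowest value of 31 of 47 genes without ties, for example Rps24, Rpl22 and Rplp2 (red) and Rps6, Rps4l and Rpl30 (blue).

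The typical spread of the members between the pools of a group was below that of all genes. Their median SD between replicates was 0.03 in ICI, 0.15 in oviduct and 0.08 in uterus embryos (log2 scale, n = 2 each), against 0.10, 0.23 and 0.13 for all genes. They are also bright, and brighter probes varied less in general. For genes with a mean log2 signal between 12 and 14, the median pooled SD was 0.12 over 23 members and 0.13 over 391 other genes. Above 14 it was 0.07 over 18 members and 0.10 over 27 others. Dimmer members did not all run this way. Between 10 and 12 the value was 0.23 over 7 members and 0.15 over 1515 others. Under 8 it was 0.34 over 5 members and 0.24 over 5291 others. Between 8 and 10 the 1 member, Rplp0, was lower, at 0.05 against 0.19 over 2579 others. The stalk gene Rplp1, whose protein helps recruit elongation factors, shows a limit of the scale. Its signal was 34134 and 34142 in ICI, 35999 and 36049 in oviduct, and 34609 and 33139 in uterus embryos, near the highest signal on any array (39963). Quantile normalisation gave it 15.07 on all arrays except the first uterus array (15.15), since it gives probes of equal rank an equal value. Differences between the brightest probes are therefore compressed.

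The first oviduct array stood apart for these genes, a description chosen after their values were seen. Any array differed from it by a mean absolute log2 difference between 0.26 (second uterus array) and 0.33 (first ICI array) over the 54 genes, and it differed from the second oviduct array by 0.27. Pairs without it differed by 0.07 (the ICI arrays) to 0.20 (the first ICI and first uterus arrays). The second oviduct array differed from the uterus arrays by 0.18 and 0.14, about as much as the uterus arrays from each other (0.14). Over all 9857 genes, the second oviduct array was as far from the others as the first: 0.40 to 0.49 against 0.40 to 0.47. Of 47 members without ties, the first oviduct array held the highest or lowest value for 31 (66.0%), the highest for 15 and the lowest for 16. Over all genes that share was 47.6% for the first and 44.7% for the second oviduct array, and the second was extreme for 31.9% of the members. The first oviduct array was also the brightest, with a mean signal of 488 against 344 to 381 on the others. Before normalisation, Rps4l had close signals of 3235 and 3139 on the oviduct arrays, while Rps24 had 24860 and 11070. The part of array brightness and normalisation in this pattern was not tested. The oviduct means below rest on these unlike pools.

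**Figure D2:**
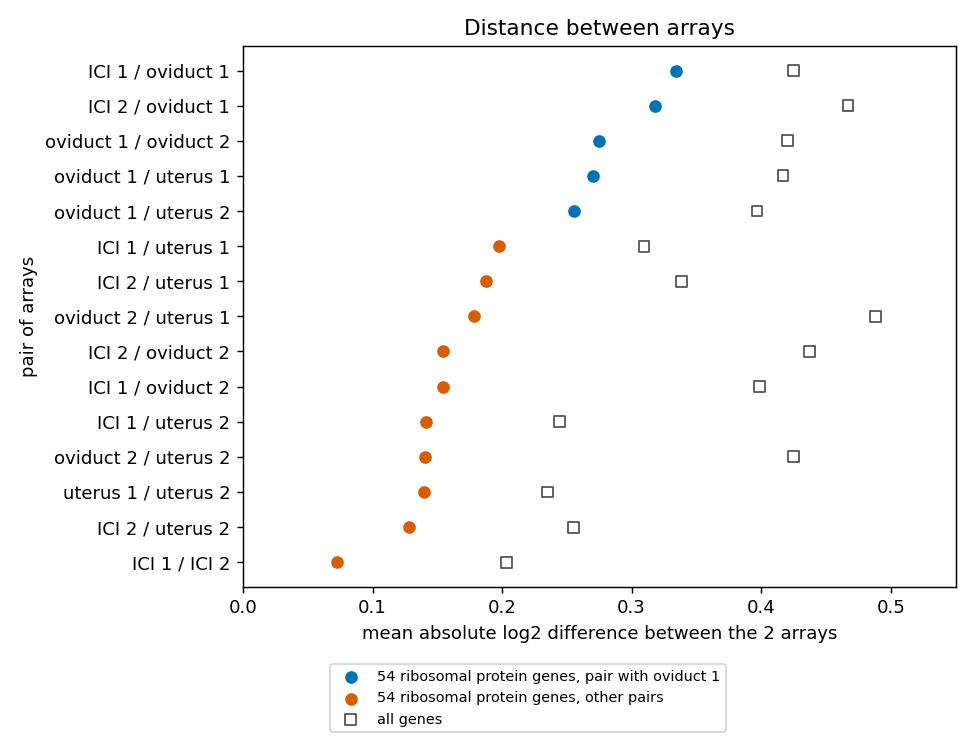
Mean absolute log2 difference for each of the 15 pairs of arrays, over the 54 ribosomal protein genes (filled circles, blue with the first oviduct array) and over all 9857 genes (open squares). The 5 pairs with the first oviduct array have the highest values for ribosomal protein genes, 0.26 to 0.33, while the other pairs with the second oviduct array lie among the rest.

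Embryos of ICI-treated and untreated mice were compared to ask what differs under the treatment. The median log2 difference (ICI minus uterus) of the ribosomal protein genes was 0.01, with 29 genes above and 24 below zero, beside a median of -0.06 for all genes. It was 0.04 for the large subunit and -0.01 for the small subunit. Differences ranged from -0.43 to 0.49, and the limma adjusted p was 0.568 or more. An unadjusted p under 0.05 was found for 0 members, against 6.67% of all genes (2.95% higher and 3.71% lower). The ICI arrays lay above both uterus arrays for 20 members (37.0%, against 19.5% of all genes) and below both for 11 (20.4%, against 32.4%).

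At the high end stood 2 paralogs that are known from other tissues, both with signals close to background here. Rpl39l, a paralog of Rpl39 found mainly in testis, had log2 signals of 5.88 and 5.81 in ICI and 5.19 and 5.52 in uterus embryos. Its log2 difference was 0.49 (SE 0.28, limma adjusted p = 0.615). Rpl3l, the paralog of Rpl3 found in striated muscle, had 5.85 and 5.87 in ICI and 5.44 and 5.55 in uterus embryos, a difference of 0.36 (SE 0.17, limma adjusted p = 0.568). The groups did not overlap for either gene. Without background correction, at 75th percentile scaling, the differences were 0.18 for Rpl39l and 0.14 for Rpl3l. For their broadly expressed counterparts the groups came closer: Rpl39 had 13.999 and 14.02 in ICI and 13.84 and 13.91 in uterus embryos, and Rpl3 had 14.33 and 14.40 in ICI and 14.27 and 14.44 in uterus embryos.

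Among the bright genes, Rps7, mutated in some patients with Diamond-Blackfan anaemia, had log2 signals of 14.31 and 14.33 in ICI and 13.90 and 13.99 in uterus embryos (difference 0.37, SE 0.20). Rpl30, whose yeast counterpart represses the splicing of its own transcript, had 11.66 and 11.49 in ICI and 11.22 and 11.24 in uterus embryos (difference 0.35, SE 0.26). Its other analysed probe gave 0.37, so the probes of Rpl30 ran the same way. Rps25, which several viral internal ribosome entry sites need, had 12.03 and 11.92 in ICI and 11.88 and 11.31 in uterus embryos, with the wider spread in the uterus embryos (difference 0.38, SE 0.25).

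At the low end stood Rps24 and Rplp2. Rps24, another gene mutated in Diamond-Blackfan anaemia, had 13.04 and 13.14 in ICI and 13.52 and 13.52 in uterus embryos (difference -0.43, SE 0.30). Rplp2, of the stalk, had 13.01 and 13.03 in ICI and 13.49 and 13.33 in uterus embryos (difference -0.39, SE 0.23). The analysed probes of Rps24 ranged from -0.43 to 0.20, and their mean was at -0.019. The dimmer probe of Rplp2 was above background on the ICI arrays alone and entered through them, so its values are not read. Rps26, whose protein lies at the mRNA exit channel, had 13.68 and 13.72 in ICI and 14.14 and 13.92 in uterus embryos (difference -0.33, SE 0.18). Rpl21 (6.04 and 6.45 in ICI, 6.78 and 6.54 in uterus embryos) and Rpl38, which in mouse affects the translation of Hox mRNAs (14.44 and 14.48 in ICI, 14.69 and 14.58 in uterus embryos), had differences of -0.42 (SE 0.30) and -0.17 (SE 0.17). At 75th percentile scaling without background correction Rpl21 was at -0.25, and over the mean of its probes Rpl38 was at -0.059. The limma adjusted p of these 8 genes lay between 0.600 and 0.764.

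Oviduct embryos were compared with uterus embryos to ask what differs in embryos held in the oviduct. The median log2 difference (oviduct minus uterus) of the ribosomal protein genes was -0.02, with 23 genes above and 31 below zero, beside -0.02 for all genes. The range was -0.48 to 0.63. The oviduct arrays lay above both uterus arrays for 6 members (11.1%, against 24% of all genes) and below both for 9 (16.7%, against 26.3%). An unadjusted p under 0.05 was found for 1 member (1.85%), higher in oviduct embryos, against 19.5% of all genes (9.26% higher and 10.3% lower). Without the first oviduct pool the median was 0.02 and without the second -0.04. Counts of calls in these fits, each with 1 oviduct array, are not read.

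That member was Rpl22, which in mouse is needed for the development of T cells. Its log2 signals were 11.56 and 10.996 in oviduct and 10.62 and 10.67 in uterus embryos, with ICI embryos at 10.57 and 10.74. The oviduct pools were above all others, the first by more. The log2 difference was 0.63, or 1.55-fold (SE 0.23, 95% interval 0.08 to 1.18, limma adjusted p = 0.218). It was 0.36 without the first oviduct pool and 0.92 without the second, each with 1 oviduct array. The paralog Rpl22l1, which the selection leaves out, had a difference of 0.68 (SE 0.35, limma adjusted p = 0.350). Rps27l, a paralog of Rps27 that p53 induces, had 13.90 and 13.57 in oviduct and 13.45 and 13.27 in uterus embryos (difference 0.37, SE 0.19).

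Rps16 (difference 0.23, SE 0.17), Rps3, which lines the mRNA entry channel (0.18, SE 0.17), and the stalk base gene Rplp0 (0.14, SE 0.17) were the other genes whose oviduct arrays lay highest above both uterus arrays. Rplp0 had 9.30 and 9.43 in oviduct, 9.22 and 9.23 in uterus and 9.49 and 9.496 in ICI embryos. The groups did not overlap in any comparison for this gene, which is used as a reference. Its 95% interval between oviduct and uterus was -0.27 to 0.54.

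On the low side, Rps4l, a paralog of the X-linked Rps4x, had 11.16 and 11.67 in oviduct and 11.83 and 11.90 in uterus embryos (difference -0.45, SE 0.22). Rps4x had 14.27 and 13.76 in oviduct and 13.99 and 13.84 in uterus embryos, and these overlapped. Rps13 had 12.78 and 13.30 in oviduct and 13.50 and 13.34 in uterus embryos (difference -0.38, SE 0.22), while its dimmer probe gave -0.11. Rps15, needed for nuclear export of the small subunit precursor, had a difference of -0.29 (SE 0.19), Rps15a one of -0.24 (SE 0.20) and Rps26 one of -0.22 (SE 0.18). Several of these values moved with median scaling, to 0.38 for Rplp0, 0.36 for Rps3, -0.26 for Rps4l, -0.17 for Rps13, -0.081 for Rps15, 0.045 for Rps15a and -0.086 for Rps26. The median of all genes moved upward too under that scaling, as given in the last section. The limma adjusted p of these 9 genes, from Rps27l to Rps26, lay between 0.326 and 0.701. Rps6, the substrate of the S6 kinases, had 12.81 and 13.58 in oviduct and 13.63 and 13.48 in uterus embryos: the first oviduct pool was low and the second within the uterus range.

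**Figure D3:**
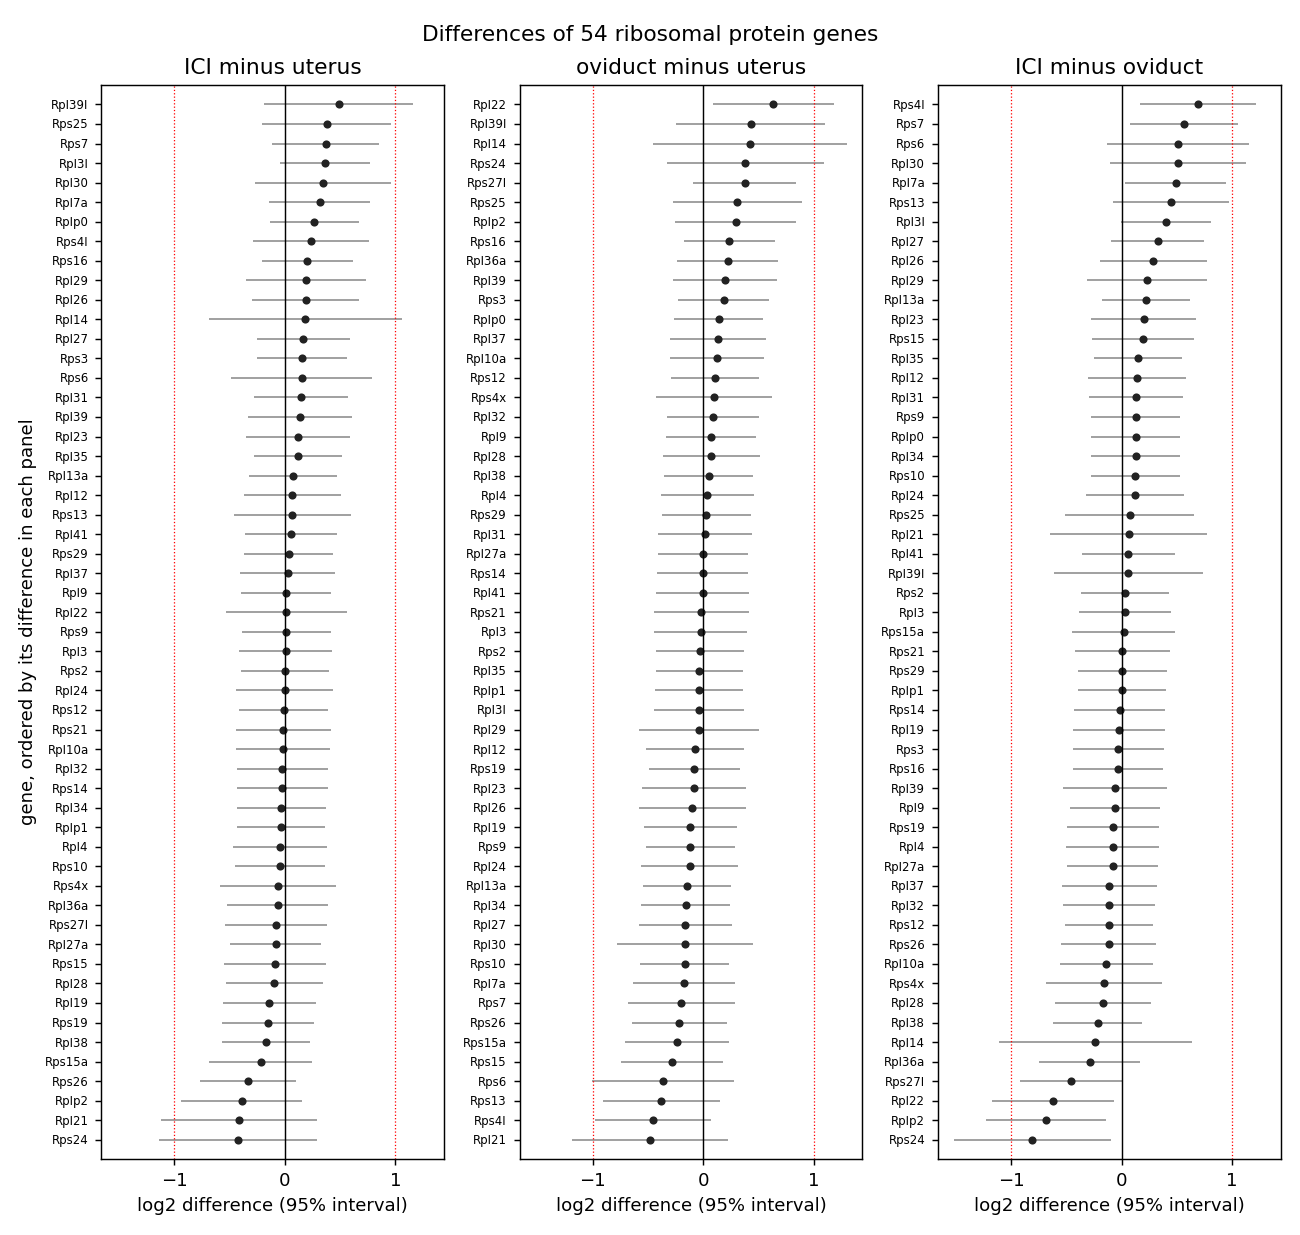
Log2 difference of each of the 54 ribosomal protein genes (points) with its 95% interval (lines) for the 3 comparisons, ordered within each panel; dotted red lines mark a 2-fold difference. No point lies past 2-fold, and 50, 48 and 46 of the 54 intervals lie inside it from left to right.

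ICI and oviduct embryos were compared directly. This comparison shares its arrays with the others, so its values are not independent of them. The median log2 difference (ICI minus oviduct) was 0.02, with 30 genes above and 24 below zero, beside -0.04 for all genes, and single genes ranged from -0.81 to 0.69. An unadjusted p under 0.05 was found for 6 members (11.1%), 3 in each direction, against 20% of all genes (8.72% higher and 11.3% lower), and 0 passed the limma adjustment (lowest adjusted p 0.165). The ICI arrays lay above both oviduct arrays for 17 members (31.5%, against 23.8% of all genes) and below both for 11 (20.4%, against 29.6%).

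Rps24 had the most negative difference. Its log2 signals were 13.04 and 13.14 in ICI and 14.36 and 13.44 in oviduct embryos, a difference of -0.81, or 0.571-fold (SE 0.30, limma adjusted p = 0.207). The first oviduct pool was far above all others. Of its 2 dimmer analysed probes neither did so: the middle one had 10.30 and 10.11 in ICI and 10.23 and 10.04 in oviduct embryos. Rplp2 had 13.01 and 13.03 in ICI and 13.98 and 13.42 in oviduct embryos (difference -0.69, SE 0.23, limma adjusted p = 0.180). Rpl22 had a difference of -0.62 (SE 0.23), Rps27l, at 13.28 and 13.28 in ICI embryos, one of -0.46 (SE 0.19), and Rpl36a, also X-linked, one of -0.29 (SE 0.19).

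Other members stood higher in ICI embryos. Rps4l had 12.03 and 12.18 in ICI and 11.16 and 11.67 in oviduct embryos (difference 0.69, or 1.61-fold, SE 0.22, limma adjusted p = 0.165). Rps7 had 14.31 and 14.33 in ICI and 13.54 and 13.97 in oviduct embryos (difference 0.57, SE 0.20). Rps6 had 13.71 and 13.71 in ICI and 12.81 and 13.58 in oviduct embryos (difference 0.51, SE 0.27), and Rpl30 differed by the same amount (0.51, SE 0.26) with 10.71 and 11.42 in oviduct embryos. Rpl7a was the one of these with close oviduct pools, at 12.75 and 12.64 in ICI and 12.24 and 12.16 in oviduct embryos (difference 0.49, SE 0.19, limma adjusted p = 0.223). With median scaling the differences were 0.42 for Rps4l, 0.31 for Rps6, 0.22 for Rpl30 and 0.25 for Rpl7a, and -0.94 for Rpl22 and -0.52 for Rpl36a. The median of all genes moved downward too under that scaling, as given in the last section. Over the mean of its probes Rps24 was at -0.25.

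The calls of this comparison changed when an oviduct pool was left out. Without the second oviduct pool, 8 of 54 members (14.8%) passed a limma adjusted p under 0.05, against 12.3% of all genes in that fit. These were Rps24 (-1.27), Rplp2 (-0.96) and Rpl22 (-0.91), lower in ICI embryos, and Rps4l (0.95), Rps6 (0.89), Rpl30 (0.87), Rps7 (0.79) and Rps13 (0.70), higher in ICI embryos. In that fit the oviduct group is 1 array whose spread is taken from the other groups. The fit without the first oviduct pool also rests on 1 oviduct array, and its count of calls is not read.

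**Figure D4:**
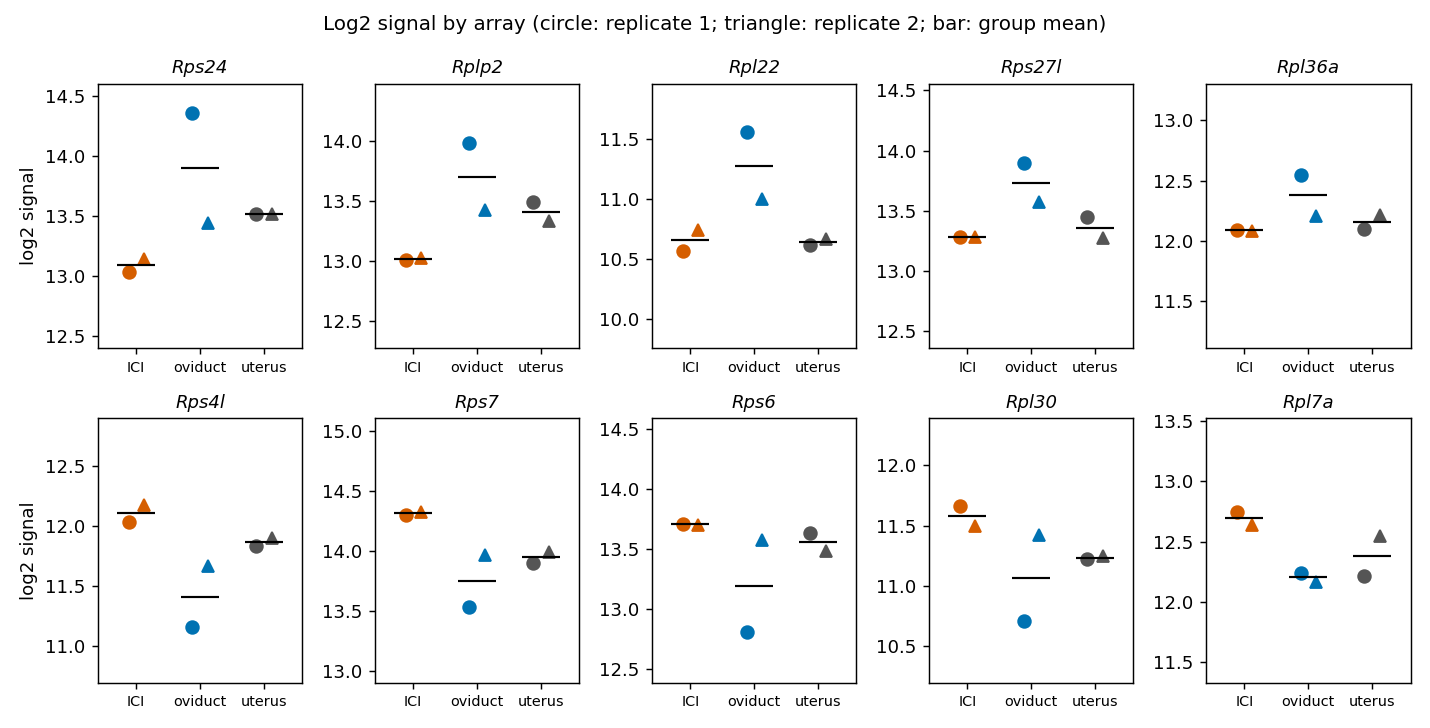
Log2 signal on each array (circle, replicate 1; triangle, replicate 2) with the group mean (bar) for the 10 genes named between ICI and oviduct embryos; upper row, lower in ICI, and lower row, higher in ICI. The first oviduct array lies farther from the ICI arrays than the second for every gene except Rpl7a, and the ICI arrays of Rplp2 sit at 13.01 and 13.03.

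Probes of a gene did not always run the same way. Of 16 members with several analysed probes, 8 had probes of opposite sign between ICI and uterus, 4 between oviduct and uterus and 9 between ICI and oviduct. These counts include the dimmer probe of Rplp2. Of the 15 members with several probes above background on every array, 7, 4 and 8 had probes of opposite sign in those comparisons. The share among all genes with several probes was not counted, so these counts are not read as particular to the members. Some opposite signs lay close to zero, as for Rpl23 between ICI and uterus embryos (-0.10 to 0.13). Rpl31 and Rps2 are given as examples chosen after their values were seen. For Rpl31, the brightest probe gave an oviduct minus uterus difference of 0.02 and another -0.68, with log2 signals of 10.06 and 9.66 in oviduct and 10.53 and 10.55 in uterus embryos (limma adjusted p = 0.175). For Rps2, the brighter probe lay between 14.93 and 14.99 on all arrays, while the dimmer had 13.17 on the first oviduct array and between 13.96 and 14.25 elsewhere. Ribosomal protein genes have many processed pseudogenes and near-identical copies, whose transcripts a probe may also bind, so values of single probes and of paralogs such as Rps4l are uncertain.

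The other 5 member genes had no probe above background on any array. Rpl17, Rpl6, Rps20, Rps23 and Rpsa, the last with 2 probes, had signals between 58 and 95, where the arrays' background lies, so they were not well above background. Of the 54 analysed genes, 53 were above background on 6 of 6 arrays. The exception was Rpl14, detected on 1 of the 2 uterus arrays (5.67 and 5.04 in oviduct, 4.43 and 5.43 in uterus embryos), whose pools also had the widest spread of all members (pooled SD 0.49).

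Genes that work with the ribosome were measured alongside. Of 74 analysed mitochondrial ribosomal protein genes, which build a separate ribosome, 0 passed in any comparison, and their median differences were 0.00 (ICI minus uterus), 0.05 (oviduct minus uterus) and -0.03 (ICI minus oviduct). Mrps6 had a log2 difference of 0.72 (SE 0.17) between oviduct and uterus and -0.87 (SE 0.17, limma adjusted p = 0.0792) between ICI and oviduct embryos. Ribosome biogenesis genes (30 analysed) had medians of 0.04, 0.12 and -0.14 in the same order, again with 0 past the threshold. Among them Pes1, of a complex that matures the large subunit, had an oviduct minus uterus difference of 0.88 (SE 0.19, limma adjusted p = 0.109), and Gnl3, the nucleolar protein nucleostemin, an ICI minus uterus difference of 0.83 (SE 0.19, limma adjusted p = 0.535).

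RNA polymerase I genes, which make ribosomal RNA (13 analysed), had medians of -0.14 (ICI minus uterus), 0.22 (oviduct minus uterus) and -0.30 (ICI minus oviduct), with 0 past the threshold in each. Polr1b, its second largest subunit, differed by 0.62 (SE 0.21) between oviduct and uterus, and Ubtf, the activator of ribosomal DNA, by -0.67 (SE 0.24). Of all genes analysed, the median was -0.06, -0.02 and -0.04 in those comparisons.

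Translation factors and regulators gave no call either. Elongation and other TOP genes (15 analysed) had medians of 0.09, 0.05 and 0.06, and initiation factor genes (17) of -0.06, -0.02 and -0.02, for ICI minus uterus, oviduct minus uterus and ICI minus oviduct. Pabpc1, the poly(A)-binding protein and itself a TOP gene, differed by 0.50 (SE 0.20) between ICI and uterus and by 0.62 (SE 0.20) between oviduct and uterus embryos. Eif4a2, an RNA helicase of initiation, differed by -1.005 (SE 0.26, limma adjusted p = 0.122) between ICI and oviduct embryos. Regulators of ribosomal protein synthesis (16 analysed) had medians of -0.01, -0.03 and -0.01. Among them Myc, a transcription factor that raises ribosome production, had the smallest p: its difference was 1.25 (SE 0.22, limma adjusted p = 0.0692) between ICI and oviduct embryos and -0.69 (SE 0.22, limma adjusted p = 0.179) between oviduct and uterus embryos. Its log2 signals were low: 6.32 and 6.31 in ICI, 4.80 and 5.33 in oviduct, and 5.76 and 5.76 in uterus embryos. They were near those of Rpl39l and Rpl3l, which were close to background. The 4 genes of the cytoplasmic ribosome left out by the naming rule and analysed (Rpl22l1, Rpl7l1, Rpl36al and Rps3a1) had medians of 0.21, 0.24 and 0.00.

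**Figure D5:**
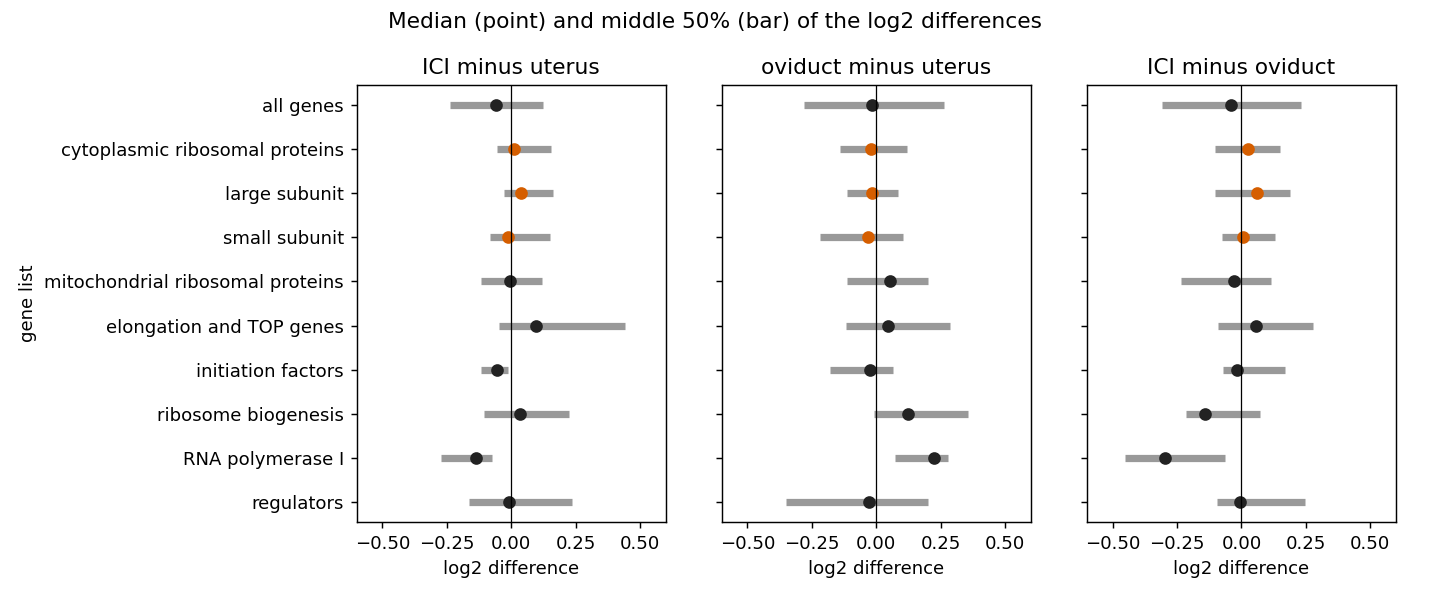
Median (point) and middle 50% (bar) of the log2 differences for all genes, for the ribosomal protein genes and their subunits (orange), and for lists of related genes, in the 3 comparisons. The medians of the ribosomal protein genes lie between -0.02 and 0.02, and RNA polymerase I genes have medians of -0.14, 0.22 and -0.30 from left to right.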

How the data were processed

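RNA of each pool was amplified into biotin-labelled cRNA and hybridised to 1 array, per the labels. Per the file headers, the authors deposited for each probe and array the mean bead signal (an intensity, not normalized between arrays), its standard error over beads, the count of beads (median 42 for the members) and a detection p-value. They also deposited log2 values, which equal log2 signal less a constant per array and probe (largest residual 0.00172), with no normalization method stated. Gene names came from the platform annotation (34885 probes with 1 symbol, 18 with several, 10378 with none), and all 88 member probes matched RefSeq genes of GRCm38.p6.

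The background was corrected with the detection p-values, and log2 signals were taken after quantile normalization with an offset of 16 (neqc of limma 3.58.1 in R 4.3.3). Groups came from the labels. All 6 arrays entered 1 linear model (lmFit, eBayes; 3 residual and 3.77 prior degrees of freedom), with Benjamini-Hochberg adjustment over 17677 probes. The fit was tested on simulated data. SE denotes the moderated standard error. A gene stands at its analysed probe with the highest mean. Named genes are the 5 highest and 5 lowest of those whose arrays do not overlap in a comparison where none passed, with the stalk genes, Rps6 and paralog pairs, and up to 3 genes of smallest p per further list. The members and lists were chosen with earlier results of these data known, so no list test was made. Alternatives changed the scaling, filter, probe summary, samples and model. Figures used matplotlib 3.10.9 in Python 3.11.15. The number of arrays limits the precision.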

Additional observations from a re-analysis of the deposited data

How the results depend on the processing

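The count of 0 ribosomal protein genes past the threshold held in all 3 comparisons under every alternative, except for 8 genes between ICI and oviduct embryos without oviduct replicate 2 (0 to 8 over the fits that leave out 1 array). Median differences of the genes moved with the scaling. With median scaling they were 0.068 (oviduct minus uterus) and -0.12 (ICI minus oviduct), where all genes had medians of 0.22 and -0.30. Relative to all genes the ribosomal protein genes were then at -0.15 and 0.18, against -0.01 and 0.07 in the reported fit. With 75th percentile scaling without background correction, the medians were -0.022 (ICI minus uterus), -0.12 (oviduct minus uterus) and 0.050 (ICI minus oviduct), and with the authors' deposited log2 values -0.022, -0.12 and 0.049. With the mean over a gene's probes the ICI minus oviduct median was 0.058. Leaving out 1 array gave -0.047 to 0.018 (oviduct minus uterus) and -0.0014 to 0.046 (ICI minus oviduct). The cause of these shifts was not tested.

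Over all probes, 9 were called between oviduct and uterus embryos and 60 between ICI and oviduct embryos. These counts became 38 for oviduct and uterus with median scaling, 0 and 20 with 75th percentile scaling and with the authors' values, 1 and 4 with no detection filter, 42 and 115 with the mean over probes, 0 and 0 with only the 2 groups compared, and 0 and 11 with array weights. Leaving out 1 array gave 0 to 1847 and 0 to 2874. With the replicate number as a block they were 0 and 5, with 0 ribosomal protein genes called in each comparison. Differences between same-numbered arrays correlated at 0.07 (ICI with oviduct), 0.13 (ICI with uterus) and 0.23 (oviduct with uterus), so the numbers were not taken to pair the arrays. Of 150 values of named genes in each comparison, 1 changed sign between ICI and uterus, 1 between oviduct and uterus and 0 between ICI and oviduct embryos: Rps15a was at 0.045 (oviduct minus uterus) with median scaling, and Rplp2 at 0.022 (ICI minus uterus) with the mean over its probes, of which the dimmer was above background on the ICI arrays alone.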
